A study of Homo sapiens with 16 samples.

Results

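Integrin subunit genes were examined in H4, 42MGBA and HCT116 cells with and without functional STAG2. The 10 genes, ITGA2, ITGA3, ITGA5, ITGA6, ITGAV, ITGB1, ITGB4, ITGB5, ITGB6 and ITGB8, were taken by name from 18417 genes that had a row of their own on the array, and each of them had 1 row. ITGB8 and ITGB4 had moved in HCT116 and ITGA6 in 42MGBA when the set was chosen by these values, so the values of all members in those 2 lines are a description and carry no test. The values in H4 did not enter the choice, and differences in H4 were tested. Differences between H4 and HCT116 were tested for the other members, while those of ITGB8 and ITGB4 share HCT116 arrays with the choice and are given with no p. Of the 10 members, 9 passed the filter on low values, which asked for a level above the array's median on at least 2 of 16 arrays, and ITGB6 did not.

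The study measured total RNA of dividing, untreated cultures on Affymetrix Human Gene 1.0 ST arrays, with 1 array per culture. H4 and 42MGBA are called glioblastoma cells in the labels and both lack functional STAG2, a subunit of the cohesin ring that holds sister chromatids together and shapes chromatin loops. The H4 deficient group held the parental line with clones 10 and 12, both non-recombinant (n = 3), and the H4 corrected group held the post-Cre knock-in clones 8-1, 8-3 and 88-1 (n = 3); Cre is a recombinase that cuts out a marked stretch of DNA. By their names 8-1 and 8-3 come from the same parent clone, so they are sisters. The 42MGBA deficient group held the parental line and the pre-Cre knock-in clones 53 and 92 (n = 3). The 42MGBA corrected group held the post-Cre clones 53-1, 53-7 and 92-6 (n = 3), with clone names that give the pre-Cre clone each was made from. In HCT116, a colorectal cancer line with wild-type STAG2, the knockout group held clones 7 and 21 (n = 2) and the wild-type group held the non-recombinant clones 24 and 27 (n = 2). Array values below follow these orders. Clones of a line are the replicates. A p-value sets a difference against 1 spread per gene, pooled over the cultures within the groups of all 3 lines. It therefore does not rest on the clones of the compared line alone.

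Integrins are receptors that join the extracellular matrix to the actin cytoskeleton, and each is a dimer of an alpha and a beta chain. ITGB1 pairs with many alpha chains: with ITGA2 it binds collagens, with ITGA5 fibronectin, and with ITGA3 or ITGA6 laminins. ITGB4 pairs with ITGA6 alone and anchors hemidesmosomes, the junctions that tie epithelial cells to the basement membrane. ITGAV pairs with ITGB1, ITGB3, ITGB5, ITGB6 or ITGB8 and binds ligands with an RGD motif, and its pairs with ITGB6 and ITGB8 bind latent TGF-beta and release it in active form. In glioma and in carcinoma these receptors are known for roles in adhesion, migration and invasion.

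Promoter windows are shown for ITGB8 and ITGA6, the members with the largest differences in HCT116 and in 42MGBA. They come from RefSeq on GRCh38.p14 and run from 250 bases before to 50 bases after an annotated start, with GC boxes (GGGCGG on either strand, so CCGCCC on the printed one) in capitals. The ITGB8 window lies at chr7:20330650-20330949 on the plus strand, and the ITGA6 window, the second of 2 for that gene, at chr2:172427336-172427635 on the plus strand.
ITGB8: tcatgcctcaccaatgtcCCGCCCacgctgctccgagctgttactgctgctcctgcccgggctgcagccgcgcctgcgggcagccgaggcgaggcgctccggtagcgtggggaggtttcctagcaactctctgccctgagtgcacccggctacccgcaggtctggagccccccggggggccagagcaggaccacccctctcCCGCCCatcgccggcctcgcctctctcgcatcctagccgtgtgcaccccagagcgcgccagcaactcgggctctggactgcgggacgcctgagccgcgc
ITGA6: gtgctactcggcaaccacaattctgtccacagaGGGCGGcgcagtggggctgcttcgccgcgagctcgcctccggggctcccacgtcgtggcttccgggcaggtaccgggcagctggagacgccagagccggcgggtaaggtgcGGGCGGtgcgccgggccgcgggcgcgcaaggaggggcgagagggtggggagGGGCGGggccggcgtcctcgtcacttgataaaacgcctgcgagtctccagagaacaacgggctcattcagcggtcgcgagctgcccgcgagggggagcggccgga
The ITGB8 window held 2 GC boxes and had a GC content of 71.7%, and the ITGA6 window held 3 and had 72%. RefSeq windows were matched for 8 of the 10 members, 13 windows in all, and 9 of the 13 held a GC box, against 45% of 35116 promoter windows of all genes. A TATA box (TATAAA, either strand) was in 2 of the 13, against 11.5% of all, and an AP-1 motif (TGANTCA, either strand) in 1 of the 13, against 7.71% of all. These matches describe letters in the windows and were not set against the expression values.

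STAG2 itself checked the labels in H4 and HCT116 but not in 42MGBA. Its log2 level was 6.57, 6.96 and 6.62 in H4 deficient arrays against 8.94, 8.91 and 8.87 in corrected arrays, and 6.57 and 7.14 in HCT116 knockout arrays against 9.28 and 9.30 in wild-type arrays. In 42MGBA it was 4.75, 5.34 and 5.60 in deficient arrays against 5.65, 5.41 and 5.53 in corrected arrays, and the groups overlapped, so those labels are used as given. Array medians were at most 5.05 in 42MGBA and at least 6.23 in the other lines, so levels in 42MGBA are set against other lines only as percentiles among all 33297 rows of an array. Within a line the lowest correlation between arrays over all rows was 0.986. The epithelial marker EPCAM stood at the 97.0th percentile in both HCT116 groups and between the 21.4th and 26.4th in the other groups. The epithelial list as a whole split the lines less. Of its 10 markers, 7 were above the array median in each HCT116 group and 5 in each H4 and 42MGBA group. Of 10 glial and neural markers, 2 were above the array median in H4 deficient, 3 in H4 corrected, 4 in 42MGBA deficient and 3 in 42MGBA corrected cells. Among them VIM and CDH2 were high in both lines, with group means of at least the 80.4th percentile, and the glial markers S100B and OLIG2 were low. The group means of the leukocyte marker PTPRC were at or below the 16.1st percentile. Of 6 leukocyte markers with a row, 1 was above the array median in each group. That was CD68, at percentiles of 63.1 to 85.2 over the arrays.

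The largest differences of members with STAG2 status were ITGB8 in HCT116 and ITGA6 in 42MGBA, both used in the choice, and ITGA2 in H4. ITGA2 differed in the other lines too. By size its difference ranked 250 among all genes tested in H4, 12 in 42MGBA and 119 in HCT116. The members' differences were not tested against each other between lines. In HCT116 knockout cells ITGB8 was 5.73-fold higher and ITGB4 1.82-fold lower than in wild-type cells. In 42MGBA deficient cells ITGA6 was 2.86-fold lower and ITGA2 1.96-fold lower than in corrected cells. In H4 none of the 9 members tested passed an adjusted p of 0.05 between deficient and corrected cells (limma with Benjamini-Hochberg adjustment over 12978 genes), where 3.31% of all genes tested did. An unadjusted p under 0.05 was reached by 1 of the 9, ITGA2. ITGB4, also among the 9, was below the array median on every H4 array and passed the filter through HCT116. Of all genes, 0.131% passed in HCT116, where 1016 had an unadjusted p under 0.05, and 0.00% in 42MGBA, where 512 did.

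Counted by arrays that did not overlap between the groups, 4 of 9 members were separated in HCT116 (ITGB8, ITGA2 and ITGAV higher in knockout, ITGB4 lower), against 40.7% of all genes tested. In 42MGBA 2 of 9 members were separated, ITGA6 and ITGB4, both lower in deficient cells, against 8.91% of all genes. In H4 4 of 9 were separated, ITGA6 higher in deficient cells and ITGA3, ITGB1 and ITGB5 lower, against 20.8% of all genes. The members used in the choice are among these counts for HCT116 and 42MGBA. The median log2 difference over the 9 members was 0.04 in H4, -0.08 in 42MGBA and 0.07 in HCT116, beside 0.02, -0.03 and -0.01 over all genes tested.

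**Figure D1:**
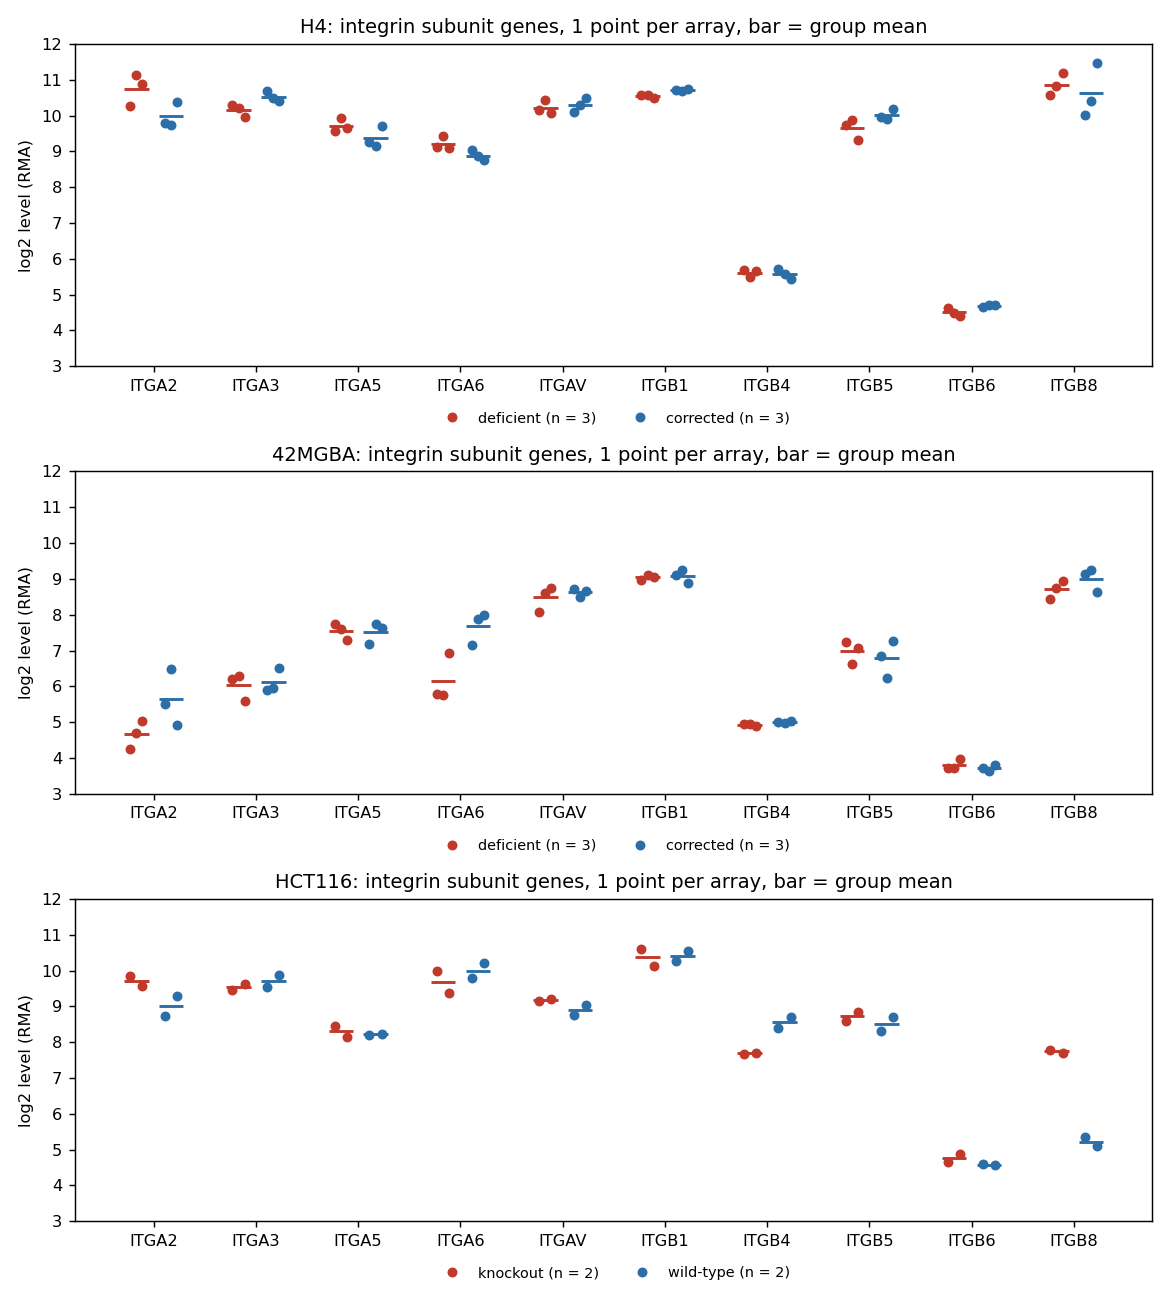
Log2 levels (RMA) of the 10 integrin subunit genes, with 1 point per array and a bar at the group mean, for H4 (top), 42MGBA (middle) and HCT116 (bottom); deficient or knockout arrays are left of corrected or wild-type arrays. ITGB8 is the gene whose HCT116 groups lie farthest apart, at a mean of 7.74 in knockout and 5.22 in wild-type arrays, while levels in 42MGBA are on another scale and cannot be read against the other panels.

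ITGAV and the beta chains that pair with it in RGD recognition come first. ITGB8 had a log2 level of 7.79 and 7.69 in HCT116 knockout clones, against 5.36 and 5.09 in wild-type clones. Both knockout clones were far above both wild-type clones, and the spread within each pair of clones was small beside the gap. The means were 7.74 ± 0.07 in knockout and 5.22 ± 0.19 in wild-type cells (SD, n = 2 each), a log2 difference of 2.52, the fourth largest in size among the 12978 genes tested in HCT116. Leaving out any 1 of the 4 arrays gave a log2 difference between 2.38 and 2.65. Within an array ITGB8 stood at a mean percentile of 71.0 in knockout cells and 34.7 in wild-type cells, so it was above the array's median in knockout and below it in wild-type cells. The epithelial markers, 10 genes of which 7 were above the array median in both HCT116 groups, summed to a log2 level of 83.7 to 84.9 in knockout and 82.9 to 83.6 in wild-type arrays, and their part in the result was not tested.

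In the glioblastoma lines ITGB8 was near the top of each array, at a mean percentile of 95.7 in H4 deficient and 94.8 in H4 corrected cells, and of 94.2 in 42MGBA deficient and 95.1 in 42MGBA corrected cells. Its log2 level in H4 was 10.57, 10.83 and 11.18 in deficient arrays, against 10.02, 10.42 and 11.46 in corrected arrays. The corrected clones enclosed the deficient ones, with clone 88-1 highest and 8-1 lowest of all 6. The SD of ITGB8 within groups was at the 98.6th percentile of all genes tested in H4. The log2 difference was 0.22 (SE 0.28, 95% interval -0.38 to 0.83, adjusted p = 0.783 by limma), and it was -0.08 without clone 8-1 and 0.64 without clone 88-1. In 42MGBA the log2 level was 8.44, 8.75 and 8.95 in deficient arrays and 9.14, 9.25 and 8.64 in corrected arrays, which overlapped, for a log2 difference of -0.30.

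ITGAV, the only alpha chain known to pair with ITGB8, showed smaller differences. In HCT116 its log2 level was 9.14 and 9.20 in knockout clones, against 8.75 and 9.03 in wild-type clones, a log2 difference of 0.28 or 1.21-fold. The clones did not overlap, though wild-type clone 27 was close to the knockout clones. H4 deficient arrays gave 10.15, 10.43 and 10.08 and corrected arrays 10.09, 10.30 and 10.49. Those ranges overlapped almost in full, and the log2 difference was -0.07 (SE 0.16, 95% interval -0.41 to 0.27, adjusted p = 0.891 by limma), or 0.03 without clone 88-1. In 42MGBA deficient arrays gave 8.08, 8.62 and 8.75 and corrected arrays 8.72, 8.50 and 8.65, with the parental array lowest, for a log2 difference of -0.14.

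ITGB5, whose pair with ITGAV is a vitronectin receptor, was at 9.74, 9.87 and 9.33 on the log2 scale in H4 deficient arrays, against 9.97, 9.90 and 10.18 in corrected arrays. Every deficient array was below every corrected one though the nearest arrays were close together. The log2 difference was -0.37 (SE 0.23, 95% interval -0.86 to 0.12), and its adjusted p was 0.463 by limma. In 42MGBA it was at 7.25, 6.63 and 7.06 in deficient arrays and 6.84, 6.24 and 7.27 in corrected arrays, which overlapped. In HCT116 it was at 8.59 and 8.85 in knockout and 8.30 and 8.70 in wild-type clones, also overlapping, with log2 differences of 0.20 in 42MGBA and 0.22 in HCT116. ITGB6, the epithelial partner of ITGAV that also releases latent TGF-beta, was low in every group, with mean percentiles between 24.9 and 31.6, and its log2 differences of -0.18 in H4, 0.08 in 42MGBA and 0.18 in HCT116 were not tested.

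The laminin-binding chains follow. ITGB4, the hemidesmosomal beta chain, had a log2 level of 7.66 and 7.71 in HCT116 knockout clones, against 8.39 and 8.71 in wild-type clones. Both knockout clones were below both wild-type clones. The means were 7.69 ± 0.03 in knockout and 8.55 ± 0.23 in wild-type cells (SD, n = 2 each), a log2 difference of -0.86, rank 66 by size among all genes tested. It was -1.02 without wild-type clone 24 and -0.70 without wild-type clone 27. Within an array ITGB4 stood at the 70.3rd percentile on average in knockout cells and the 80.0th in wild-type cells, so it was above the array median in both.

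ITGB4 was low in the glioblastoma lines. On every H4 array it was below the array median, at percentiles of 37.3 to 41.1. It passed the filter on low values through HCT116, so its test in H4 rests on low values. H4 deficient arrays gave log2 levels of 5.68, 5.50 and 5.65 and corrected arrays 5.71, 5.58 and 5.44, which overlapped, with a log2 difference of 0.04 (SE 0.10, 95% interval -0.17 to 0.24, adjusted p = 0.910 by limma). The sign of that difference turned to -0.03 without clone 88-1. In 42MGBA deficient arrays gave 4.95, 4.94 and 4.90 and corrected arrays 5.0, 4.97 and 5.03. The 42MGBA groups did not overlap, but the log2 difference was only -0.07, and the within-group SD of 0.03 was at the 0.878th percentile of all genes tested in that line.

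ITGA6, the alpha chain of laminin receptors with ITGB1 and ITGB4, had log2 levels of 5.79, 5.76 and 6.93 in 42MGBA deficient arrays, against 7.16, 7.87 and 8.00 in corrected arrays. All corrected clones were above all deficient cultures, and the gap between the highest deficient and the lowest corrected array was small beside the spread inside the deficient group, where clone 92 stood above the others. The means were 6.16 ± 0.67 in deficient and 7.68 ± 0.45 in corrected cells (SD, n = 3 each), a log2 difference of -1.52, the largest in size of all 12978 genes tested in that line. It ranged from -1.90 to -1.32 when 1 array was left out. The SD of ITGA6 within groups was also large, at the 99.4th percentile of all genes tested in 42MGBA and the 96.7th in HCT116. Against the corrected clones made from it, pre-Cre clone 53 was lower by a log2 difference of -1.41 for 53-1 and -2.11 for 53-7, and pre-Cre clone 92 by -1.07 for 92-6. The mean percentile was 68.3 in deficient and 87.4 in corrected cells.

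The difference in ITGA6 had the other sign in H4, and the change of sign between the lines was not tested. H4 deficient arrays gave log2 levels of 9.11, 9.44 and 9.09, against 9.04, 8.86 and 8.75 in corrected arrays. Deficient arrays were all above corrected ones, narrowly at the nearest, and the log2 difference was 0.33 (SE 0.29, 95% interval -0.28 to 0.94, adjusted p = 0.639 by limma). In HCT116 the level was 9.98 and 9.36 in knockout and 9.78 and 10.21 in wild-type clones, which overlapped, for a log2 difference of -0.32.

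ITGA3, the alpha chain of another laminin receptor with ITGB1, was at 10.30, 10.20 and 9.97 on the log2 scale in H4 deficient arrays, against 10.68, 10.48 and 10.42 in corrected arrays. Deficient arrays were all below corrected ones. The log2 difference of -0.37 (SE 0.19, 95% interval -0.78 to 0.04) had an unadjusted p of 0.0712 and an adjusted p of 0.355 by limma. Elsewhere its groups overlapped: 42MGBA deficient arrays ranged from 5.59 to 6.29 and corrected arrays from 5.89 to 6.51, and HCT116 knockout clones from 9.46 to 9.62 and wild-type clones from 9.53 to 9.89. Its log2 differences there were -0.08 and -0.17.

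The collagen receptor chain ITGA2 varied more among clones than nearly all genes, and its differences had opposite signs in different lines, which was not tested. H4 deficient arrays gave log2 levels of 10.27, 11.12 and 10.87, against 9.80, 9.75 and 10.38 in corrected arrays. The deficient clones 10 and 12 were above all corrected clones, but the parental array was below corrected clone 88-1. The log2 difference of 0.78, or 1.71-fold (SE 0.34, 95% interval 0.06 to 1.50), had an unadjusted p of 0.0357 and an adjusted p of 0.259 by limma, so it did not pass. Leaving out 1 array gave 0.60 to 1.02.

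In 42MGBA ITGA2 was at 4.25, 4.70 and 5.02 in deficient arrays, against 5.50, 6.49 and 4.91 in corrected arrays, on the log2 scale. The groups overlapped through corrected clone 92-6, which was below its pre-Cre clone 92. The means were 4.66 ± 0.38 in deficient and 5.63 ± 0.80 in corrected cells (SD, n = 3 each), a log2 difference of -0.97 that was -0.54 without clone 53-7 and -1.33 without clone 92-6. Pre-Cre clone 53 was lower than its corrected clones by a log2 difference of -0.79 for 53-1 and -1.78 for 53-7. HCT116 knockout clones gave 9.86 and 9.58, against 8.73 and 9.30 in wild-type clones. They did not overlap, and the log2 difference of 0.71, or 1.63-fold, was 0.42 without wild-type clone 24 and 0.99 without wild-type clone 27. The SD of ITGA2 within groups was at the 96.1st percentile of all genes tested in H4, the 99.5th in 42MGBA and the 94.1st in HCT116.

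ITGA5, the alpha chain of the fibronectin receptor, had log2 levels of 9.56, 9.93 and 9.65 in H4 deficient arrays, against 9.26, 9.14 and 9.72 in corrected arrays. Corrected clone 88-1 lay inside the deficient range. The log2 difference was 0.34 (SE 0.18, 95% interval -0.04 to 0.71, adjusted p = 0.366 by limma), and it was 0.51 without that clone. In 42MGBA and HCT116 its groups overlapped and the log2 differences were 0.03 and 0.07.

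ITGB1, the beta chain that ITGA2, ITGA3, ITGA5 and ITGA6 share, was high in every group. Its mean percentile lay between 94.0 and 95.4 in all 6 groups. H4 deficient arrays gave log2 levels of 10.57, 10.57 and 10.50, against 10.72, 10.68 and 10.75 in corrected arrays. The H4 groups did not overlap. The SD within groups was at the 1.64th percentile of all genes tested in H4, but at the 51.2nd in 42MGBA and the 91.2nd in HCT116. The log2 difference in H4 was -0.17 (SE 0.12, 95% interval -0.43 to 0.09, adjusted p = 0.549 by limma), and in 42MGBA and HCT116 the groups overlapped with log2 differences of -0.03 and -0.05.

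**Figure D2:**
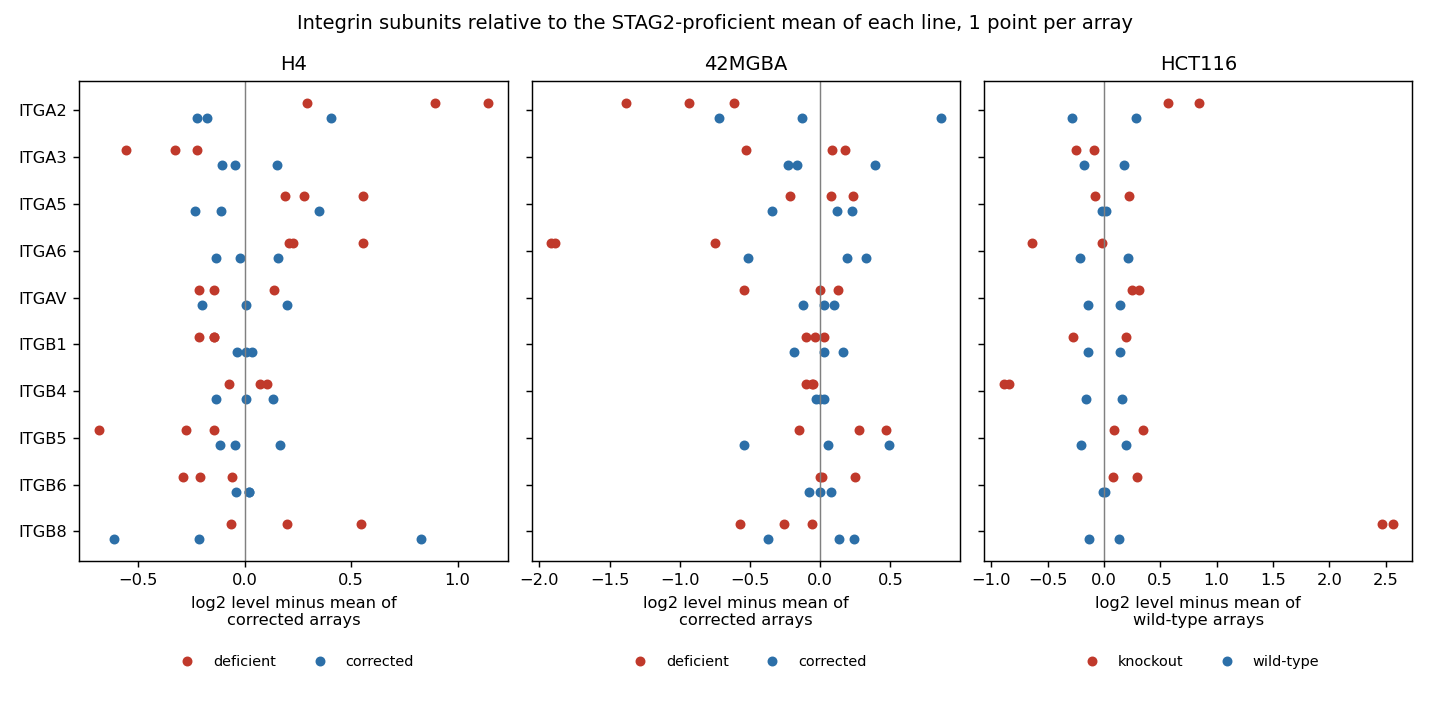
Log2 level of each integrin subunit on each array minus the mean of the corrected arrays (H4, 42MGBA) or wild-type arrays (HCT116) of its line; red points are deficient or knockout arrays and blue points corrected or wild-type arrays, and the horizontal scales differ between panels. ITGA2 lies right of the line in H4 and HCT116 and mostly left of it in 42MGBA, ITGA6 is far left only in 42MGBA, and ITGB8 is far right only in HCT116; differences between lines were not tested for these members.

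**Figure D3:**
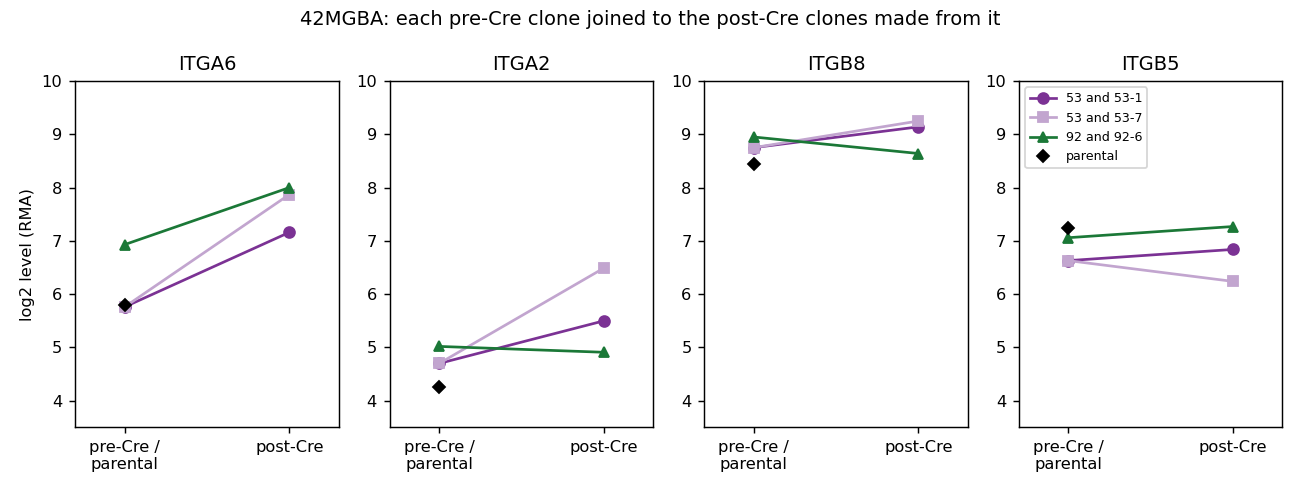
Log2 levels (RMA) of ITGA6, ITGA2, ITGB8 and ITGB5 in 42MGBA, with each pre-Cre clone (left) joined to the post-Cre corrected clones made from it (right) and the parental array as a black diamond. All 3 lines run upward for ITGA6, while clone 92 and its corrected clone 92-6 run the other way from clone 53 for ITGA2 and ITGB8.

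How far the lines themselves differ was tested between H4 corrected and HCT116 wild-type cells, which both carry functional STAG2 and share an array scale. Of the 7 members tested, ITGB8 and ITGB4 left aside, 6 passed an adjusted p of 0.05 (limma), where 52.7% of all genes tested did. Line, culture and any difference in how the arrays of each line were run cannot be told apart in this contrast. ITGB8 was 42.6-fold higher in H4 corrected cells, a log2 difference of 5.41, and ITGB4 was 7.84-fold lower, a log2 difference of -2.97; both rest on HCT116 wild-type arrays that the choice of members used. ITGB4 also passed the filter on low values through HCT116, where it was high. Higher in H4 corrected cells were also ITGB5 by 1.52 on the log2 scale (adjusted p = 0.000156), ITGAV by 1.40 (1.21e-05), ITGA5 by 1.15 (0.000183), ITGA2 by 0.96 (0.0426) and ITGA3 by 0.82 (0.00463). ITGA6 was lower by a log2 difference of -1.11 (adjusted p = 0.00874). ITGB1, at 0.31 with a 95% interval of 0.02 to 0.60, did not pass (adjusted p = 0.0723).

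With 1 array left out, 4 to 6 of these 7 members passed between the lines. ITGA2 passed neither without corrected clone 8-1 (adjusted p = 0.0518 by limma) or 88-1 (0.142) nor without wild-type clone 24 (0.284), nor with arrays centred on their medians (0.0508), ITGA3 not without clone 24 (0.0738) and ITGA6 not without clone 27 (0.0954), while ITGB1 passed without clone 27 (0.0442). Between the cells that lack STAG2, H4 deficient and HCT116 knockout, 5 of the 7 passed. There, with no test, ITGB8 was higher in H4 by a log2 difference of 3.12 and ITGB4 lower by -2.07, and ITGA6, at -0.46, did not pass (adjusted p = 0.260 by limma). Beside these differences the epithelial marker EPCAM was lower in H4 corrected than in HCT116 wild-type cells by a log2 difference of -7.05 and the mesenchymal marker VIM was higher by 5.59, and their part was not tested.

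Ordered by mean log2 level over the H4 and HCT116 groups, ITGB8 ran from H4 deficient over H4 corrected and HCT116 knockout to HCT116 wild-type, where only the H4 groups overlapped. ITGB4 ran from HCT116 wild-type over HCT116 knockout and H4 deficient to H4 corrected, and again only the H4 groups overlapped. ITGA6 had the same order of groups as ITGB4, but both HCT116 groups overlapped, as did HCT116 knockout with H4 deficient. For ITGA2 and ITGA5 the order was that of ITGB8; H4 deficient overlapped with H4 corrected for both genes, H4 corrected with HCT116 knockout for ITGA2, and HCT116 knockout with wild-type for ITGA5. ITGAV, ITGB5, ITGA3 and ITGB1 were highest in H4 corrected cells, followed by H4 deficient cells. For ITGAV those H4 groups overlapped, and for ITGB5, ITGA3 and ITGB1 they did not. In 42MGBA, by percentile, ITGB8, ITGAV and ITGB1 had group means between 93.1 and 95.4, and ITGB4 was near the middle of the array, at 48.7 in deficient and 49.4 in corrected cells.

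Other integrin subunits were then read from a list of 16 genes outside the set, of which 15 had a row and 7 passed the filter. ITGB3, the beta chain of the ITGAV vitronectin receptor on many tumour and endothelial cells, was the only one of the 7 to pass in H4. Its log2 level was 5.99, 5.51 and 4.98 in deficient arrays, against 6.43, 6.20 and 7.11 in corrected arrays, which did not overlap. It was lower in deficient cells, by 2.12-fold and a log2 difference of -1.08 (SE 0.24, adjusted p = 0.0273 by limma). ITGB3 passed the filter only through corrected clones 8-1 and 88-1, at the 51.9th and 61.7th percentiles of their arrays; it passed the test with no filter too, and was not tested under a filter on the average level. The call was lost without deficient clone 10 (adjusted p = 0.0603) or 12 (0.110), without corrected clone 8-1 (0.0520) or 88-1 (0.0985), without the 42MGBA arrays (0.0751) and with H4 fitted alone (0.168). ITGA4, a leukocyte and neural crest chain that binds VCAM1 and fibronectin, was at 9.88, 10.07 and 9.74 in H4 deficient and 9.32, 9.55 and 9.62 in corrected arrays, and at 5.08 and 4.80 in HCT116 knockout and 5.12 and 4.62 in wild-type clones. Its difference with STAG2 status in H4 was 0.40 on the log2 scale (adjusted p = 0.425 by limma), while H4 corrected cells had 24.7-fold more than HCT116 wild-type cells (adjusted p = 1.21e-09). ITGA4 was below the array median on every HCT116 array, at percentiles of 26.4 to 33.2. It passed the filter only through H4 and 42MGBA, so that fold sets a high level against a low one. In HCT116 and 42MGBA none of the 7 passed; ITGA4 and ITGA11 in 42MGBA had an unadjusted p under 0.05, at log2 differences of -0.55 and -0.54, and no gene did in HCT116.

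Ligands, partners and adaptors of the integrins were read from 9 lists of 134 genes in all, the other subunits included, of which 111 were tested. In H4 10 of the 111 passed, all lower in deficient cells (9.01%, beside 3.31% of all genes), in HCT116 0 and in 42MGBA 0 by limma. The lists were chosen with earlier results of these data known, so these shares are a description and no test of the lists. An unadjusted p under 0.05 was reached by 31 in H4, 10 in HCT116 and 3 in 42MGBA. With H4 fitted alone 0 of the 111 passed.

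Collagens, ligands of the ITGA2 receptor, made up 5 of those 10: COL1A1, COL3A1, COL4A1, COL4A2 and COL6A3. All 11 collagen genes of the list had a negative log2 difference in H4, with a median of -0.53 beside 0.02 over all genes. COL4A1, a basement membrane chain, had log2 levels of 7.60, 6.73 and 6.89 in deficient arrays, against 8.55, 7.96 and 8.72 in corrected arrays. It was lower in deficient cells by 1.34 on the log2 scale (adjusted p = 0.00364 by limma). COL3A1, a fibrillar collagen, was lower in deficient cells by 2.24 on the log2 scale (adjusted p = 0.0193 by limma). It passed in only 3 of the 6 fits that left out an H4 array and not with sister clones averaged (0.0523). LAMA1, the alpha chain of a laminin that ITGA6 receptors bind, gave 6.23, 5.36 and 5.54 in deficient arrays, against 7.09, 6.99 and 7.29 in corrected arrays. LAMA1 was 2.66-fold lower in deficient cells, a log2 difference of -1.41 (SE 0.17, adjusted p = 0.000708 by limma), and was the only 1 of 9 laminin chains tested to pass. It, too, passed the filter only through the corrected arrays, where it stood at the 60.7th to 64.3rd percentile; it passed the test with no filter and was not tested under a filter on the average level. Beside these ligands, 5 of 6 fibroblast markers, COL1A1 (in both lists), DCN, LUM, FAP and PDGFRB, also passed as lower in H4 deficient cells, with log2 differences of -1.49, -2.48, -1.91, -2.61 and -0.69. The 6 summed to log2 levels of 36.6 to 42 in deficient and 46.2 to 49.8 in corrected arrays, COL1A2 did not pass, and their part in the ligand values was not tested. All H4 arrays come from 1 line and its clones. In bulk RNA fewer of its cells expressing a gene and less RNA per cell cannot be told apart.

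CD9, a tetraspanin that sits beside ITGB1 integrins in the membrane, was at 10.07, 9.92 and 9.41 on the log2 scale in H4 deficient arrays, against 10.67, 10.76 and 10.92 in corrected arrays. The groups did not overlap, and CD9 was 1.98-fold lower in deficient cells, a log2 difference of -0.98 (SE 0.15, adjusted p = 0.00382 by limma). It was the 1 of 12 tetraspanins and lateral partners that passed. Among 25 adaptors tested 2 passed in H4, LIMS1, a partner of the kinase ILK at focal adhesions, with a log2 difference of -0.60 (adjusted p = 0.0313), and DAB2, an endocytic adaptor that binds beta tails, with -0.68 (0.0313). Each of these 2 passed in 2 of the 6 fits that left out an H4 array and neither passed with sister clones averaged (0.0721 and 0.0944), whereas LAMA1, CD9, COL1A1, COL4A1, COL4A2 and COL6A3 passed in all 6. Without the 42MGBA arrays COL1A1, COL3A1 and DAB2 did not pass, while LAMA1, CD9, COL4A1, COL4A2, COL6A3 and LIMS1 did. TLN1 and FERMT2, the talin and kindlin that switch integrins on, had log2 differences of -0.13 and 0.00 in H4 and 0.04 and 0.04 in HCT116 and passed in neither. Of the 6 hemidesmosome genes and the 11 trafficking genes tested, 0 passed by limma in any of the 3 lines; 2 trafficking genes had an unadjusted p under 0.05 in H4.

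Latent TGF-beta genes and TGF-beta targets, which belong to the pathway that the ITGAV and ITGB8 pair acts on, were read beside ITGB8 in HCT116. None of 15 passed and 3 had an unadjusted p under 0.05. In 8 the knockout clones did not overlap with wild-type clones, 7 of them higher, where 40.7% of all genes tested did not overlap. The share of all genes in each direction is not given here. The lean was not particular to this list: 8 of 17 fibronectin, RGD and matricellular ligands did not overlap, 7 of them higher. Among tetraspanins and lateral partners 3 did not overlap, all lower. SMAD7, an inhibitor of the pathway and one of its direct targets, was at 6.20 and 6.37 on the log2 scale in knockout clones, against 5.55 and 5.70 in wild-type clones. Its log2 difference of 0.66 (SE 0.13) had an adjusted p of 0.0854 by limma. SKIL, a SMAD corepressor that is also a target, was at 7.29 and 7.93 in knockout and 7.05 and 6.91 in wild-type clones. Its log2 difference of 0.63 had an adjusted p of 0.320, and SKIL passed when knockout clone 7 was left out. Over the list, 8 log2 differences were positive and 7 negative, with a median of 0.03 beside -0.01 over all genes. TGFB1, the ligand gene, had a log2 difference of 0.23 and TGFBI, an extracellular target, of 0.36, with 95% intervals of -0.09 to 0.55 and -0.07 to 0.78. On the negative side were NRROS, which tethers latent TGF-beta, at -0.36, the receptor TGFBR2 at -0.21 and the target PMEPA1 at -0.16. Among other ligands LAMB1, a laminin chain, was at 8.60 and 9.02 in knockout and 7.89 and 7.97 in wild-type clones, with a log2 difference of 0.88 and an adjusted p of 0.244 by limma.

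**Figure D4:**
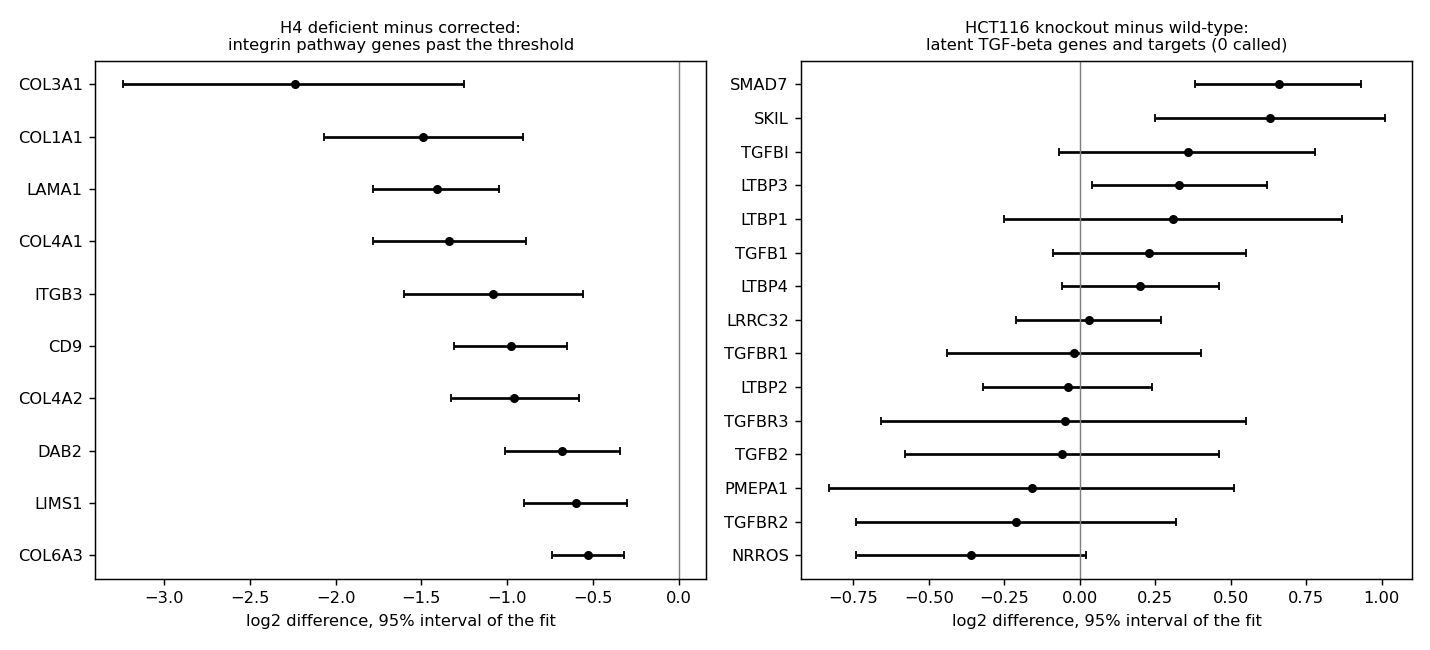
Left, log2 difference between H4 deficient and corrected cells, with the 95% interval of the fit, for the 10 integrin pathway genes past the threshold; right, log2 difference between HCT116 knockout and wild-type cells for the 15 latent TGF-beta genes and targets tested. All 10 genes on the left are lower in deficient cells, from COL3A1 at -2.24 to COL6A3 at -0.53; on the right SMAD7 and SKIL lie farthest above 0, and none passed after adjustment.

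Genes whose values ran most like those of the 3 moving members were sought over the 16 arrays, after each gene was centred on the mean of its line. These correlations are a description, since all genes share the same arrays. The values that chose ITGB8, ITGB4 and ITGA6 also set much of each pattern, so a high or low r restates the choice in part. For ITGB8 the highest were TM4SF18 (r = 0.893), TTC13 (0.891), ANGPT2 (0.887), DECR1 (0.874) and SCML1 (0.869), of which ANGPT2 had a log2 difference of 3.06 in HCT116 and TM4SF18 of 2.11. ITGB4 had the lowest correlation of all genes tested with ITGB8 (r = -0.903), and both were chosen for moving in HCT116. ITGB4 itself ran most like PABIR2 (r = 0.929) and NEIL2 (0.907) and least like NEBL (-0.932) and TM4SF18 (-0.931). ITGA6 ran most like DDX19A (r = 0.909), ICOSLG (0.849) and CCDC17 (0.848), whose log2 differences in 42MGBA were -0.36, -0.47 and -0.38, and least like BHLHA9 (-0.82). Among the members, ITGA2 correlated with ITGA6 and with ITGB8 at 0.57 each.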

How the data were processed

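Total RNA of 16 cultures was hybridised to 16 arrays, and groups were read from the sample titles. The deposited table holds log2 values of 33297 rows, made by the authors with RMA in Affymetrix Expression Console, as the submitters' processing notes name them; versions are not given in the sources used here. RMA corrects background, equalises array distributions and summarises probes, which compresses low levels. The platform annotation pairs 19460 rows with 1 gene and 1754 with several, and leaves out 12083; 1-gene rows were used, with symbols updated through RefSeq GRCh38.p14 for 19429. The row with the highest mean stood for each of 18417 genes, and 12978 were tested, those above the array's median on at least 2 arrays. The fit (limma 3.58.1, R 4.3.3) covered all 16 arrays and 6 groups with 1 shared spread per gene, with Benjamini-Hochberg adjustment and a threshold of 0.05. The number of arrays limits the precision, and detection calls were not used here.

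The members and lists were chosen with earlier results of these data known. Named were STAG2, all members, the list genes past the threshold, and up to 4 more of a list by smallest p. For ITGB8, ITGB4 and ITGA6, genes among the 5 highest and 3 lowest correlations were named. Cell type markers were named too, as were some list genes outside that rule, such as FERMT2 and PMEPA1. No 2 arrays held identical values. The fit was tested on simulated data. Alternatives were each line alone, other filters on low rows, an intensity trend, renormalization, median centring, another row per gene, averaged sister clones, no parental arrays and leaving out each array. Genes of the lists without a row, such as ITGA1, were not used here.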

Additional observations from a re-analysis of the deposited data

Results flagged for a closer look

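The ITGA6 difference between deficient and corrected cells had opposite signs in H4 and 42MGBA, with every array of one group on one side in each line. The log2 difference in H4 minus that in 42MGBA was 1.85, and this was not tested because ITGA6 was chosen for its value in 42MGBA. ITGB6 was lower in all deficient arrays of H4 and higher in all knockout arrays of HCT116, and the log2 difference in H4 minus that in HCT116 was -0.36; this was not tested, since ITGB6 was below the filter on low values.

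LAMA1 passed a test of the difference between lines, but its level was low in HCT116 and 42MGBA. The log2 difference between deficient and corrected cells in H4, minus that between knockout and wild-type cells in HCT116, was -1.39 (SE 0.27, adjusted p = 0.0442 by limma). The differences within the lines were -1.41 in H4 and -0.03 in HCT116. Against 42MGBA the value was -1.36 (adjusted p = 0.0315 by limma). Neither test was repeated under the alternative runs. All 3 H4 deficient arrays were below all 3 corrected ones. LAMA1 was below the array median on every HCT116 and 42MGBA array, at percentiles of 31.5 to 41.8. It entered the tested genes only through H4 corrected arrays, so a level lower by this much could hardly show in HCT116 and 42MGBA. With 2 or 3 arrays in each group, no search for single outlying arrays was made.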

How the results depend on the processing

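No member passed between H4 deficient and corrected cells under any alternative run. The number of all genes passing there was 34 with each line fitted alone, 165 with sister clones averaged, 190 without the 42MGBA arrays (chosen after seeing the data) and 169 to 631 with 1 array left out, against 429. Centring arrays on their medians gave 227 higher and 195 lower, against 169 higher and 260 lower. Integrin pathway genes passing in H4 were 0 with the line fitted alone, 7 with sister clones averaged (COL3A1, DAB2 and LIMS1 lost), 8 with the filter on the average level (ITGB3 and LAMA1 not tested) and 6 to 13 with 1 array left out, against 10. Without the 42MGBA arrays they numbered 7, with COL1A1, COL3A1, DAB2 and ITGB3 lost and VCAM1 gained. In HCT116 the count of all genes was 3 with the line alone, 5 with the filter on the average level, 10 with an intensity trend, 10 with sister clones averaged, 3 without the 42MGBA arrays and 5 to 77 with 1 array left out, against 17; pathway genes numbered 0 to 1. In 42MGBA it was 0 to 9 with 1 array left out (9 without clone 53-1, 2 without clone 92) and 0 with the pre-Cre clone as a block, where 1032 genes had an unadjusted p under 0.05. With 1 array left out, H4 log2 differences turned sign for ITGB8 (-0.08 without 8-1, up to 0.64), ITGAV (-0.18 to 0.03, without 88-1) and ITGB4 (-0.03 without 88-1, up to 0.10). Fewer arrays or genes tested is part of the leave-one-out, averaged and filter settings; the other causes were not tested. No paired analysis was possible by replicate number because groups share none.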
